A study of Gallus gallus with 38 samples.

Results

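The genes ABCG5, ABCG8 and ENPP7 act on dietary sterols and sphingomyelin at the surface of the intestine, and their transcripts were compared between the jejunum and the cecum of broiler chickens. They were chosen by gene symbol: each of the 3 symbols was carried by 1 probe set of the array platform, among 11528 different symbols with a named probe set and 18308 probe sets in all, so no choice between probe sets of a gene was needed. The samples were scraped mucosae of male Ross 308 broilers, a fast growing meat line, all fed the same standard 3-phase diets and aged 6 weeks. All birds had been vaccinated, as chicks, against coccidiosis and the common viral diseases of poultry (infectious bronchitis, Marek's, Newcastle and Gumboro disease), and the labels name no other treatment and no mutation or transgene. In each tissue the labels carry the bird numbers 1 to 19, which gives 38 arrays, 1 per bird and tissue, and the study's methods describe the same animals in both tissues. The labels do not give the pen of a bird, and a scraping of mucosa holds every cell type of that layer. An extra label field names a stomach mucosa for all samples, and a comparison of the tissues cannot bear on a label that all share. Of 7 gastric markers 3 were measured, and 0 were called different (limma, 0 also at an unadjusted p under 0.05). Their mean per array lay between 3.50 and 4.34 in the jejunum and between 3.57 and 4.60 in the cecum (log2 signal). The highest cecal mean was that of bird 3, and the other cecal arrays reached 4.07. This array also had the highest cecal means of exocrine pancreas markers (4.33, others up to 3.95) and liver markers (3.82, others up to 3.56). No stomach sample was at hand as a reference for the level of the gastric markers.

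ABCG5 and ABCG8 are half-transporters of the ATP-binding cassette family. In mammals they work only as a heterodimer, which sits in the apical membrane of enterocytes and in the canalicular membrane of hepatocytes and pumps plant sterols and cholesterol back into the gut lumen or into bile. In humans, loss of either gene causes sitosterolemia, in which plant sterols accumulate in blood. ENPP7 encodes alkaline sphingomyelinase, an enzyme anchored at the brush border that, in mammals, cleaves dietary sphingomyelin to ceramide and phosphocholine in the presence of bile salts. Ceramide is then split by the neutral ceramidase ASAH2, and glycosylated ceramides can be hydrolysed by the lactase protein LCT.

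The arrays carry signals on a log2 scale, so a difference of 1 is a 2-fold change ratio (FCR). Differentially expressed transcripts (DETs) are those with an adjusted p under 0.05 and an FCR of 2 or more, from limma's moderated test over all probe sets with Benjamini-Hochberg adjustment. By this rule 1336 of 18308 probe sets were DETs, 7.30% of those tested, with 673 on the jejunal side (3.68%) and 663 on the cecal side (3.62%). The median difference over all probe sets was -0.03. Array medians lay between 5.57 and 5.75, and each of the 38 arrays correlated better with the mean of its own tissue than with that of the other. For the jejunal array of bird 19 these r were close, 0.9617 with its own tissue and 0.9572 with the cecum. The jejunal array of bird 19 (r = 0.9617 with the mean of the other jejunal arrays, median of the tissue 0.9865) and the cecal array of bird 3 (r = 0.9282, median 0.9885) stood apart. Some of the values that rest on them are also given without them.

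All 3 genes were DETs higher in the jejunum, a call made for 3.68% of all probe sets, with an FCR of 40.6 for ABCG5, 36.3 for ABCG8 and 44.5 for ENPP7. In order of the difference they were 21st, 28th and 15th among the 673 jejunal DETs. The genes were chosen with earlier results of these data known, so their calls and places are a description. The jejunal signal exceeded the cecal one in 19 of 19 birds for ABCG5 and ABCG8 and in 18 of 19 for ENPP7. Such an excess in every bird was found for 4.91% of all probe sets. The exception for ENPP7 was bird 19, whose signals in both tissues were alike.

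The signal of ABCG5, a subunit of the sterol exporter, lay between 7.44 (bird 19) and 9.87 (bird 1) in the jejunum, with a median of 9.13. In the cecum it lay between 3.13 (bird 10) and 4.68 (bird 3), with a median of 3.72. The next highest cecal signal was 4.23 (bird 12). All jejunal arrays were above all cecal arrays, with a gap of 2.76 between the lowest jejunal and the highest cecal signal. Without the jejunal array of bird 19 the gap was 3.47. The tissue means were 9.09 ± 0.58 and 3.75 ± 0.37 (SD, n = 19 each), and the difference was 5.34 ± 0.15 on the log2 scale (SE, limma, adjusted p = 3.9e-29). Within a bird the difference ran from 3.61 in bird 19 and 4.84 in bird 5 to 6.04 in bird 18.

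For ABCG8, the partner half-transporter, the jejunal signal lay between 5.41 (bird 19) and 8.43 (bird 1) with a median of 7.61. The cecal signal lay between 2.02 (bird 1) and 2.85 (bird 12) with a median of 2.44. The groups did not overlap here either, with a gap of 2.56 (3.54 without the jejunal array of bird 19). Complete separation in this direction was seen in 316 probe sets, 1.73% of all. The means were 7.57 ± 0.73 in the jejunum and 2.39 ± 0.23 in the cecum (SD, n = 19 each), a difference of 5.18 ± 0.17 (SE, limma, adjusted p = 2.6e-27). The smallest differences within a bird were again those of birds 19 (2.95) and 5 (4.33), and the largest was that of bird 1 (6.41).

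ENPP7, the sphingomyelinase, lay between 4.56 and 11.85 in the jejunum with a median of 11.16. The lowest value was that of bird 19, followed by 9.91 in bird 8, and the highest was that of bird 1. In the cecum the signal lay between 4.58 (bird 19) and 6.89 (bird 12) with a median of 5.09. The jejunal array of bird 19 was thus just below the lowest cecal array, whereas the other 18 jejunal arrays were above every cecal array with a gap of 3.02. The means were 10.77 ± 1.60 and 5.30 ± 0.57 (SD, n = 19 each), and the difference was 5.48 ± 0.36 (SE, limma, adjusted p = 1.6e-16). Without the jejunal array of bird 19 the jejunal mean was 11.12 ± 0.56 (SD, n = 18) and the difference 5.82 ± 0.18 (SE, limma, adjusted p = 3.1e-28). Within the other 18 birds the difference ran from 4.23 in bird 12 to 6.89 in bird 1.

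**Figure D1:**
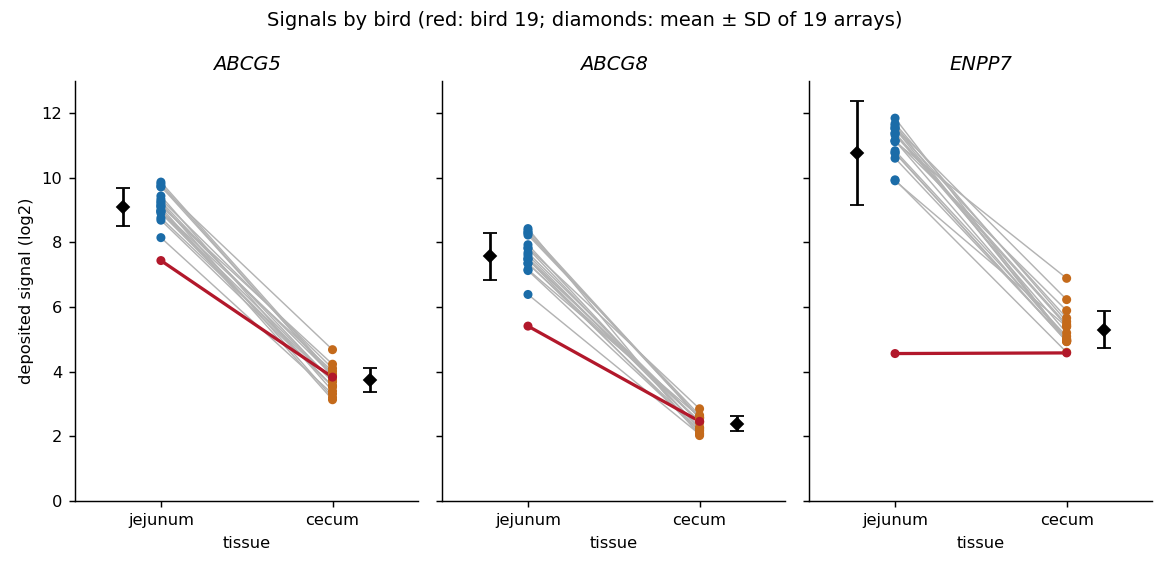
Deposited log2 signals of ABCG5, ABCG8 and ENPP7 in the jejunum and cecum, with a grey line joining the arrays of a bird, bird 19 in red and diamonds for the mean ± SD of 19 arrays. Every line falls from jejunum to cecum except that of bird 19 for ENPP7, which runs from 4.56 to 4.58.

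The 3 genes varied more between birds in the jejunum than a typical probe set did. The SD of ABCG8 in the jejunum was 2.72 times the median SD of all probe sets (0.27), that of ABCG5 was 2.17 times and that of ENPP7 5.94 times. Without bird 19 the SD of ABCG8 was 2.03 times the median and that of ABCG5 1.68 times. Only 7 of 18308 probe sets had a larger SD in the jejunum than ENPP7, but without bird 19 there were 1198, and its SD was then 2.13 times the median. In the cecum the SD of ABCG8 was 0.766 times the median of 0.29 and that of ABCG5 1.26 times. ENPP7 had the widest spread of the 3 genes in the cecum, at 1.93 times the median, with birds 12 (6.89) and 3 (6.23) highest, and without these birds its cecal SD fell from 0.57 to 0.36. The deposited values hold no detection calls, so whether the low cecal signals were above background was not tested.

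The mucosae also differed in the markers of their cell types. Of 16 measured markers of the enterocyte brush border, 10 were higher in the jejunum and 6 were not called. These 6 were CDH17, CDHR2, ESPN, EPS8, MYO1A and CDHR5, with differences from -0.13 to 0.99. At any FCR, 13 of the 16 passed the adjusted p on the jejunal side and 0 on the cecal side (limma). The mean of the 16 per array was 9.17 to 10.52 in the jejunum and 6.42 to 8.14 in the cecum. Of 6 markers shared by epithelial cells, 0 were higher in the jejunum and 1 (CDX2) was a DET higher in the cecum, where 5 passed the adjusted p at any FCR (limma, 5 also at an unadjusted p under 0.05), with means per array of 8.14 to 9.08 and 8.92 to 9.48. All 5 measured smooth muscle markers were higher in the cecum (5.30 to 8.65 against 7.66 to 9.45), as were 5 of 8 fibroblast markers, whose part in the differences was not tested. Without the cecal array of bird 3 the cecal smooth muscle means began at 8.17. No marker of these lists had a signal of 0, and the signals carry no detection call. With the mean of the epithelial markers as a covariate the differences were 5.61 for ABCG5, 5.52 for ABCG8 and 5.93 for ENPP7, and with that of the smooth muscle markers they were 4.71, 4.54 and 4.42, each with an adjusted p of at most 1.3e-09 (limma). Both marker means differed between the tissues themselves, so these fits cannot separate tissue from cell composition. The mean of the brush border markers was not used as a covariate. In whole mucosa, fewer cells of a type and less RNA per cell cannot be told apart.

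The question of whether the genes moved together from bird to bird was addressed within each tissue. In the jejunum ABCG5 and ABCG8 rose and fell together over the 19 birds, with Pearson's r = 0.98 and Spearman's rho = 0.94 (two-sided permutation test, both p = 1.0e-05, the smallest that 100000 permutations can give; 9.0e-05 after Benjamini-Hochberg adjustment over the 9 relations computed). Without birds 5 and 19, the 2 farthest from the median of ABCG5, r was 0.93. Birds 19 and 5 had the lowest and bird 1 the highest signal of both genes.

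ENPP7 was also related to both exporter genes in the jejunum. With ABCG5 r was 0.83 and rho 0.77 (permutation p = 2.0e-05 and 1.4e-04, adjusted 9.0e-05 and 6.3e-04), and with ABCG8 r was 0.84 and rho 0.71 (permutation p = 7.0e-05 and 8.3e-04, adjusted 2.1e-04 and 0.00249). Without bird 19 these r were 0.78 and 0.72, and without birds 5 and 19 they were 0.68 (adjusted permutation p = 0.0099) and 0.59 (adjusted permutation p = 0.0219).

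The level of brush border markers moved with the same genes. Over the 19 jejunal arrays their mean correlated with ABCG5 at r = 0.80, with ABCG8 at 0.76 and with ENPP7 at 0.54, and without bird 19 at 0.87, 0.83 and 0.85. After a straight line on that mean was taken out of each gene, the r between the genes in the jejunum were 0.94 for ABCG5 with ABCG8, 0.80 for ABCG5 with ENPP7 and 0.79 for ABCG8 with ENPP7 (adjusted permutation p = 9.0e-05, 0.0169 and 0.0171). The values of ENPP7 rested on bird 19: without it they were 0.84, 0.14 and 0.05 (adjusted permutation p = 9.0e-05, 0.862 and 0.944).

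In the cecum, the relation of ABCG5 and ABCG8 did not pass the threshold (r = 0.32, rho = 0.19, permutation p = 0.181 and 0.424, adjusted 0.229 and 0.424). Only 4.8% of probe sets had a lower cecal mean than ABCG8 (2.39), and signals so low limit what can be said of its relations there. ABCG5 and ENPP7 were related (r = 0.63, rho = 0.56, permutation p = 0.00535 and 0.0126, adjusted 0.012 and 0.0284). Without birds 3 and 10, the 2 farthest from the median of ABCG5, r was 0.65 (adjusted permutation p = 0.0099). Without bird 19 it was 0.68 (adjusted permutation p = 0.00605). Without birds 3, 8, 12 and 19 r fell to 0.44 and the adjusted permutation p was 0.155. For ABCG8 and ENPP7 r was 0.49 and rho 0.33 (permutation p = 0.0305 and 0.168, adjusted 0.0548 and 0.216). Without bird 19 that r was 0.54 (adjusted permutation p = 0.0321), and without birds 1 and 12 it was 0.20. The difference between the tissues in these relations was not tested.

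No relation between the jejunal and the cecal signal of a bird passed the threshold: r was 0.31 for ABCG5, 0.20 for ABCG8 and 0.37 for ENPP7 (rho 0.41, 0.25 and 0.41; permutation p of r = 0.203, 0.427 and 0.0921, of rho = 0.0818, 0.295 and 0.0818), and the lowest adjusted p among them was 0.123. Without bird 19 the 3 values of r were 0.47, 0.36 and 0.27.

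**Figure D2:**
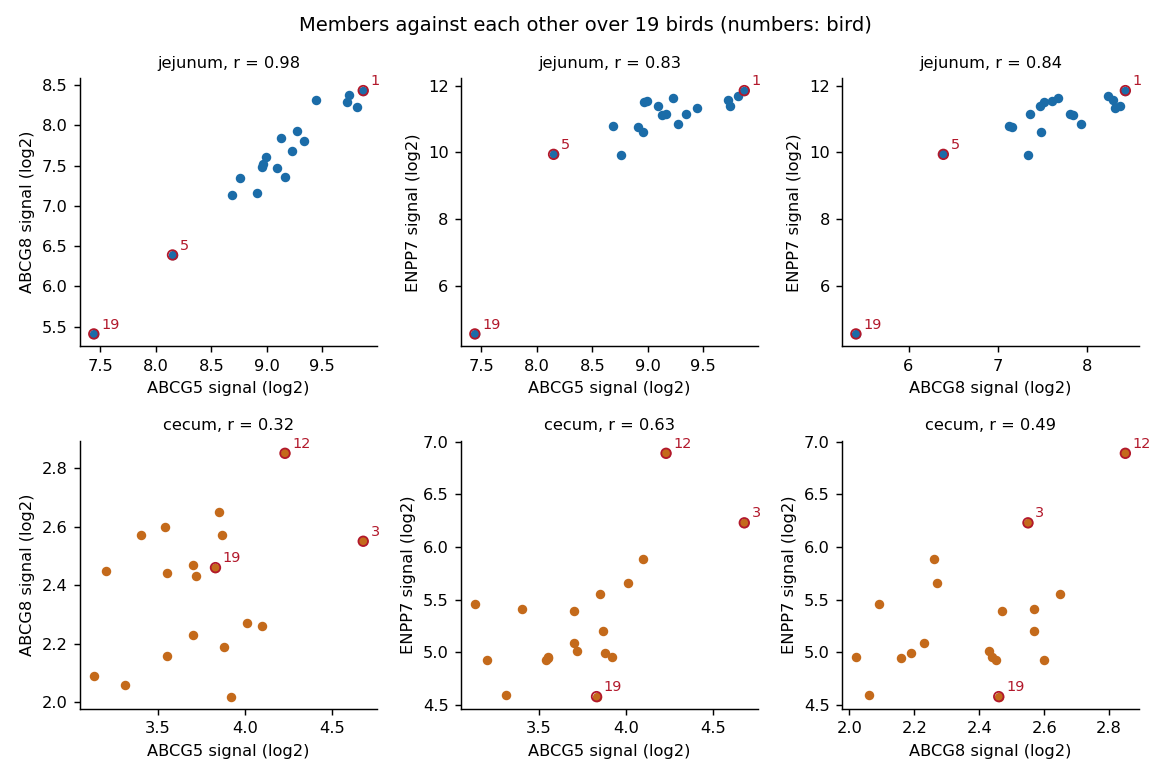
Log2 signals of each pair of the 3 genes over 19 birds in the jejunum (upper row, blue) and cecum (lower row, orange), with the arrays of a few birds circled and numbered. The jejunal points of ABCG5 and ABCG8 fall near a line (r = 0.98) with birds 19 and 5 lowest, and the cecal points scatter (r = 0.32).

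The genes whose jejunal signals ran most like those of ABCG5 and ABCG8 over the 19 birds were ranked by Pearson's r among 11527 other genes, as a description. ABCG8 was the closest gene to ABCG5 and ABCG5 the closest to ABCG8, with and without bird 19 (r = 0.98 and 0.95). Over the 19 arrays the next genes were the same 4 for both: the serotonin transporter SLC6A4, the membrane peptidase MME, RMDN2 and TLCD4, with r between 0.95 and 0.96, and all 4 were DETs higher in the jejunum by 2.05 to 5.45 on the log2 scale. Without bird 19 the next genes were EPHX1, SLC6A4, ENTPD5 and MME for ABCG5 (r between 0.93 and 0.94). For ABCG8 they were RRAGD, SLC25A46, UGT8 and SELENOP1 (0.92 to 0.93). The 4 shared genes then held places from 3 to 10 for ABCG5 (r = 0.92 to 0.94) and from 7 to 17 for ABCG8 (0.90 to 0.91). The 19 arrays share their tissue, and the brush border markers moved with the same genes, as given above.

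The list of ENPP7 was a different one. LCT, the lactase (r = 0.96), and ASAH2, the neutral ceramidase (r = 0.95), came nearest, followed by the retinol carrier RBP2 (0.95), ANXA13 (0.93) and the carotene cleaving enzyme BCO1 (0.92). These r leaned on bird 19: without it they were 0.82 for LCT, 0.76 for ASAH2, 0.40 for RBP2, 0.55 for ANXA13 and 0.76 for BCO1, and the nearest genes were MGAM and SORD, each with r = 0.89. ABCG8 was 34th and ABCG5 38th in likeness to ENPP7 over the 19 arrays, and 126th and 53rd without bird 19.

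In the cecum the nearest gene to ENPP7 was MTTP, which loads lipid onto apolipoprotein B (r = 0.86, and 0.83 without bird 3), followed by LACC1 (0.83) and the brush border genes MGAM (0.78), SLC7A9 (0.77) and MEP1A (0.76). For ABCG5 they were IYD (0.82), NUBP2, CALCR, AIFM3 and HYAL2 (0.76 to 0.78), and without bird 3 each of these r was 0.59 to 0.72. For ABCG8 they were EPHA1 (0.77), GSR, SMCO4, MCU and POLR2D (0.73 to 0.76). The low cecal signals of ABCG8, given above, limit what its likeness to any gene can say there. ABCG8 and ABCG5 were not near each other in the cecum (ABCG8 was 2291st in likeness to ABCG5).

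Of the ABCG family 4 genes were measured, of which 3 were higher in the jejunum and 1 was not called. ABCG2, an exporter of urate and drugs, was higher in the jejunum in 19 of 19 birds (difference 1.32 ± 0.16, adjusted p = 2.2e-09, limma), with signals of 7.54 to 9.30 in the jejunum and 5.68 to 8.41 in the cecum. ABCG1, which moves cholesterol out of macrophages and other cells to lipoproteins, differed by 0.14 ± 0.12 (adjusted p = 0.338, limma).

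Of the ENPP family 5 genes were measured, 3 of them DETs on the jejunal side and 1 on the cecal side. ENPP3, a nucleotide pyrophosphatase of the cell surface, was higher in the jejunum of every bird (difference 3.05 ± 0.19, FCR 8.26). ENPP6, a choline phosphodiesterase, was likewise (2.43 ± 0.13, FCR 5.38), and its jejunal signals of 6.74 to 8.99 did not meet the cecal ones of 4.67 to 5.75. ENPP2, the autotaxin that makes lysophosphatidic acid, was higher in the cecum in 18 of 19 birds (-1.15 ± 0.14). ENPP1, which makes pyrophosphate from ATP, differed by -0.58 ± 0.18 (adjusted p = 0.00628, limma), short of an FCR of 2. ABCG4, ENPP4 and ENPP5 were not analysed here.

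The other brush border enzymes of sphingolipid digestion had the same direction as ENPP7. ASAH2 lay between 4.37 and 9.73 in the jejunum and between 4.10 and 5.42 in the cecum (difference 3.97 ± 0.27, FCR 15.6, adjusted p = 2.0e-16, limma). LCT lay between 3.81 and 10.40 in the jejunum and between 3.19 and 4.97 in the cecum (5.42 ± 0.33, FCR 42.7, adjusted p = 1.3e-17, limma). For both the lowest jejunal value was that of bird 19, the only one within the cecal range. Of the 20 measured genes of sphingolipid digestion and breakdown, 4 were higher in the jejunum (these 2, ENPP7 and the lysosomal hexosaminidase subunit HEXA at 1.06), 1 was higher in the cecum (the alkaline ceramidase ACER1 at -1.06) and 15 were not called. The median difference of the list was -0.01, beside -0.03 over all probe sets, and at any FCR 7 passed the adjusted p on the jejunal side and 6 on the cecal side (limma). HEXA fell to 0.99, below an FCR of 2, when bird 3 was left out.

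Of 20 measured genes of sphingolipid synthesis, 1 was a DET on the jejunal side, 2 were on the cecal side and 17 were not called (median difference 0.29). At any FCR, 11 passed the adjusted p on the jejunal side and 4 on the cecal side (limma). The cecal DETs were higher in the cecum of all 19 birds: SPTSSB, a small subunit of serine palmitoyltransferase, with a difference of -3.29 ± 0.15 (FCR 9.77), and the ceramide synthase CERS4 with one of -3.28 ± 0.19 (FCR 9.74), with adjusted p = 6.4e-22 and 7.4e-19 (limma). The ceramide synthase CERS1 was higher in the jejunum by 1.11. Of the 8 measured genes of sphingosine phosphate receptors and transport 0 were DETs (median difference -0.01), while 2 on each side passed the adjusted p below an FCR of 2 and 5 had an unadjusted p under 0.05 (limma).

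Sterol uptake, esterification and export had 23 measured genes, 8 of them DETs on the jejunal side and 0 on the cecal side, while 4 more in each direction passed the adjusted p (limma) below an FCR of 2 and 16 of the 23 had an unadjusted p under 0.05. The median difference was 0.40. The 8 genes were those that package lipid into lipoproteins, APOB (7.43), MTTP (4.64) and APOA1 (4.01), the surface receptors SCARB1 (3.20) and CD36 (2.29), the intracellular carriers SCP2 (1.59) and OSBPL1A (1.55), and SOAT1, which esterifies cholesterol (1.46). Each was higher in the jejunum of 19 of 19 birds. ABCA1, which exports cholesterol to apolipoprotein A1, was higher in the cecum by an amount below the FCR rule (-0.60, adjusted p = 3.2e-06, limma). NPC1L1, the sterol uptake protein, was not analysed here.

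Of 10 measured genes of cholesterol synthesis, 1 was a DET (MSMO1, 1.65 ± 0.23, higher in the jejunum of 18 birds) and 9 were not called, with a median difference of 0.58. At any FCR, 6 of the 10 passed the adjusted p on the jejunal side and 0 on the cecal side (limma, 6 also at an unadjusted p under 0.05).

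Regulators of sterol genes were DETs in part, and the list was not limited to factors that act on ABCG5 and ABCG8. NR1H3, the liver X receptor that senses oxysterols, differed by 0.18 (adjusted p = 0.0677), HNF4A by 0.05 (adjusted p = 0.779) and NR5A2 by 0.79 (adjusted p = 2.1e-09, all limma), short of an FCR of 2. SREBF2, the main activator of cholesterol synthesis genes, differed by 0.37 (adjusted p = 0.0034, limma). Of the 20 measured regulators 3 were higher in the jejunum, 3 in the cecum and 14 were not called, with a median difference of 0.17; at any FCR 7 and 6 passed the adjusted p (limma). Higher in the jejunum were GATA4, a transcription factor of the proximal small intestine in mammals (3.87 ± 0.24), INSIG1 (1.71) and the fatty acid receptor PPARA (1.34). Higher in the cecum of all 19 birds were the receptors PPARD (-2.12) and PPARG (-1.91) and the intestinal transcription factor CDX2 (-1.22), a direction held in every bird by 4.69% of all probe sets.

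The 8 lists together held 108 measured genes of 150 named, of which 22 were higher in the jejunum (20.4%), 7 in the cecum (6.48%) and 79 were not called. Without ABCG5, ABCG8 and ENPP7 they held 105, with 19 higher in the jejunum (18.1%). Over all probe sets the shares were 3.68% and 3.62%. The lists were not drawn at random, and these shares are a description.

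**Figure D3:**
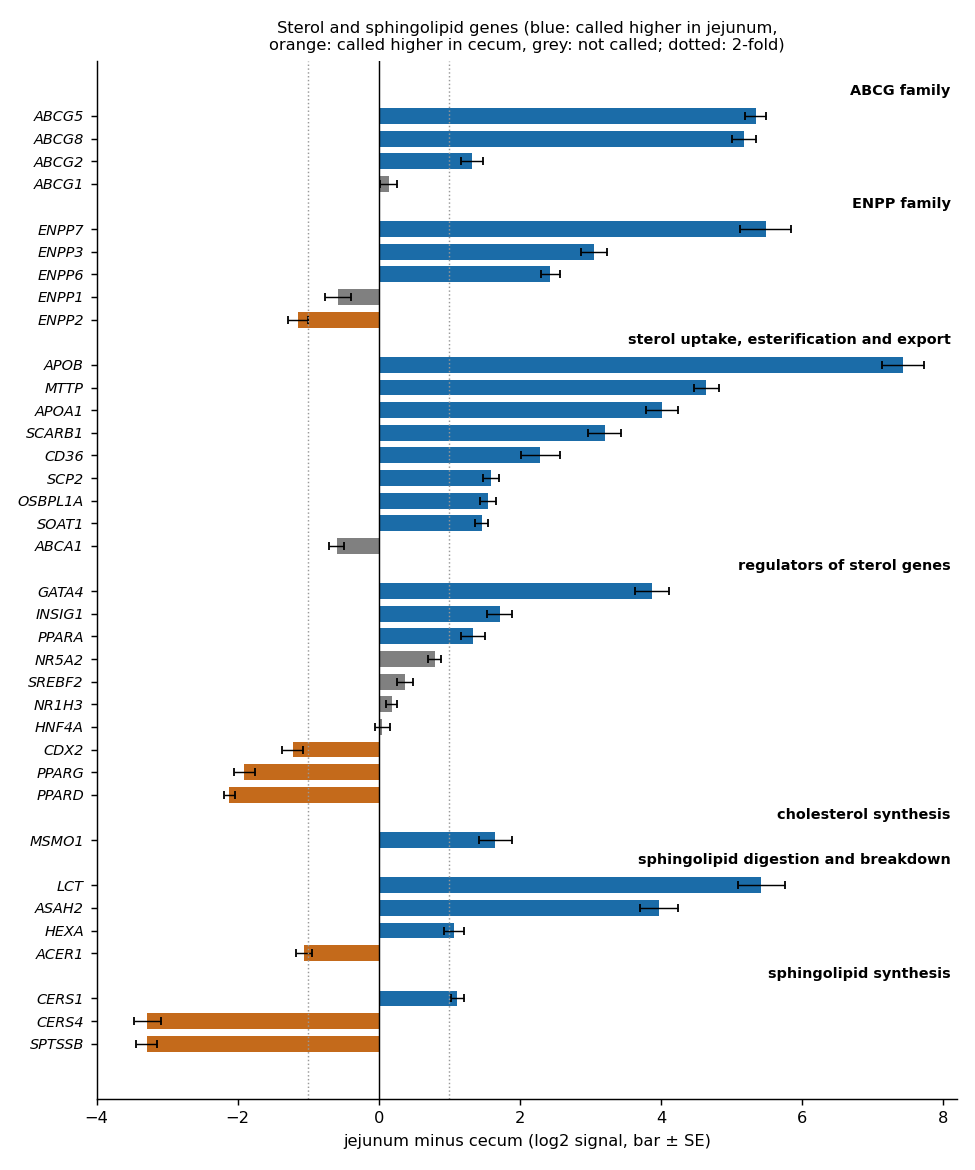
Jejunum minus cecum differences (log2 signal, bars ± SE) of ABCG5, ABCG8, ENPP7 and genes of their families and pathways, grouped by list, with blue for DETs higher in the jejunum, orange for DETs higher in the cecum and grey for genes not called. ABCG5, ABCG8 and ENPP7 stand between 5.18 and 5.48, NR5A2, SREBF2, NR1H3 and HNF4A lie between the dotted lines of an FCR of 2, and CERS4 and SPTSSB reach -3.28 and -3.29.

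The jejunal array of bird 19 had the lowest signal of that tissue for ABCG5, ABCG8 and ENPP7, but by different amounts. On a scale where 0% is the mean of the cecal arrays without bird 3 and 100% the mean of the other 18 jejunal arrays, it stood at 68.3% for ABCG5, 57.1% for ABCG8 and -11.7% for ENPP7. Over the 34 probe sets that were higher in the jejunum by 5 or more, its median position was 74%, and over all 673 jejunal DETs it was 52.3%. In 265 of the 673 (39.4%) its signal was not above the highest cecal array, whereas the other jejunal arrays had 16 to 167 such probe sets, with a median of 49. Among the 34 it had 4, including ENPP7 and LCT, and every other jejunal array had 0.

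Of the 22 jejunal DETs in the pathway lists, this array was the lowest of the jejunum for 17 and the highest for 1. For 10 of the 22 its signal was not above the highest cecal array, beside 39.4% of all jejunal DETs. For 7 of these 10 (ENPP7, SCARB1, CD36, APOA1, GATA4, ASAH2 and LCT) all the other jejunal arrays were above the highest cecal array. The shares of all jejunal DETs that go with the counts of 17, 1 and 7 were not computed. GATA4 was 3.77 in this array, 7.34 to 8.76 in the other jejunal arrays and 3.40 to 4.75 in the cecum. The gene that was highest in this array was ENPP6, at 8.99 beside 6.74 to 8.01 in the others. Of the genes chosen after their values were seen, SLC10A2 and FABP6 stood high in it and RBP2 and BCO1 low. SLC10A2, the apical bile acid transporter of the ileum in mammals, was 8.63. In the other jejunal arrays it was 2.73 to 6.32 and in the cecum 2.18 to 3.49. FABP6, the ileal bile acid binding protein, was 11.29, just above the 6.33 to 11.14 of the other jejunal arrays. RBP2 was 6.82 beside 10.79 to 11.99, and BCO1 was 6.27 beside 8.48 to 10.71. The bile acid receptor NR1H4 was 8.36 beside 5.78 to 7.57. NR0B2, of the same list of regulators, went the other way. It was 6.55 beside 7.49 to 9.47, and below the 7.61 to 8.75 of the cecum. The brush border marker mean of the array was 9.65, within the 9.17 to 10.52 of the other jejunal arrays. That mean covers opposite extremes. The array was the lowest of the jejunum for FABP2 (9.63), FABP1 (9.72), SI (10.41), SLC5A1 (9.69), SLC15A1 (8.40) and ESPN (5.76). It was the highest for TMIGD1 (10.86). The smooth muscle mean of the array was 8.18 (others 5.30 to 8.65) and its leukocyte mean was 8.72 (others 7.28 to 8.05). The part of any of these in its low ENPP7 signal was not tested.

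**Figure D4:**
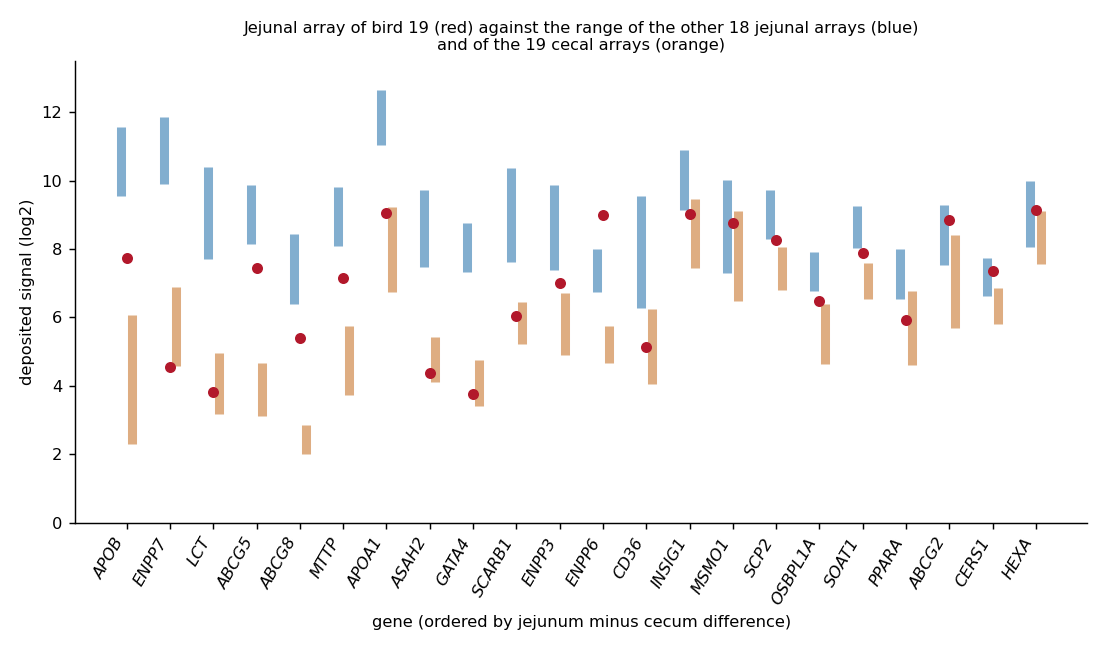
Log2 signals of the 22 pathway genes called higher in the jejunum, with the jejunal array of bird 19 (red points), the range of the other 18 jejunal arrays (blue bars) and the range of the 19 cecal arrays (orange bars). The red point lies in the cecal range for LCT, ASAH2, GATA4, APOA1, SCARB1, CD36, INSIG1, MSMO1 and PPARA, and just below it for ENPP7. It lies between the ranges for ABCG5 and ABCG8, and above both for ENPP6.

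ABCG5 and ABCG8 are adjacent genes, and their neighbours in the RefSeq gene table of GRCg7b, used only for order, were compared in the same way. Of the 12 nearest measured genes around the pair and around ENPP7, 0 were DETs, beside 7.30% of all probe sets, a share too low for 12 genes to tell apart from 0. Below an FCR of 2, 6 passed the adjusted p, and 7 had an unadjusted p under 0.05 (limma). Next to the pair, DYNC2LI1, whose annotated span overlaps the end of ABCG5, differed by -0.36 ± 0.11, and LRPPRC on the far side of ABCG8 by -0.34 ± 0.077. PPM1B had the largest difference among the 12, at 0.83 ± 0.10, and was higher in the jejunum of 19 of 19 birds (adjusted p = 3.7e-09, limma). THADA, PLEKHH2 and PREPL differed by 0.27, -0.25 and -0.07. Around ENPP7 the differences of CBX8, CBX2, MIR1652, ENGASE, C1QTNF1 and USP36 lay between -0.34 and 0.05.

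**Figure D5:**
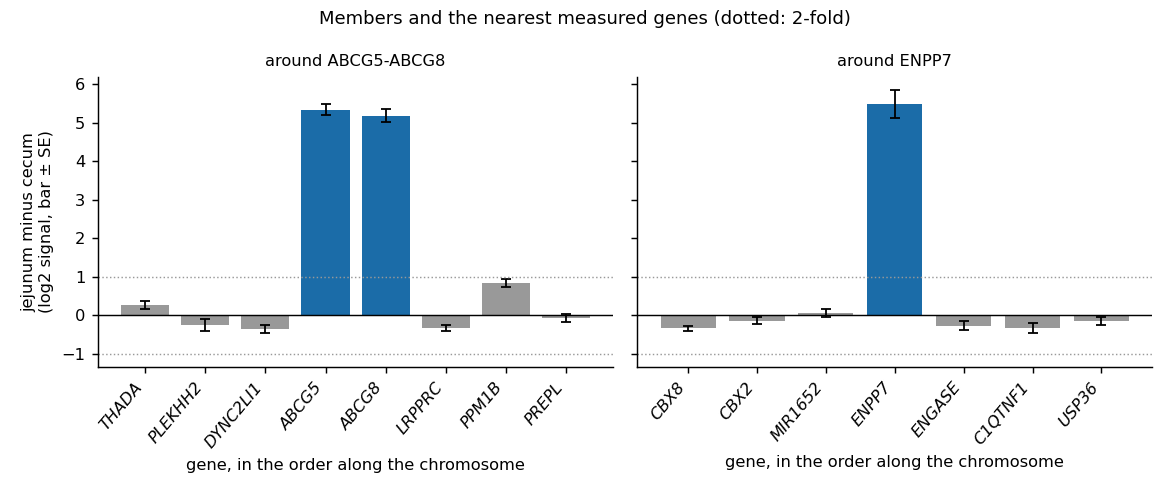
Jejunum minus cecum differences (log2 signal, bars ± SE) of ABCG5 and ABCG8 (left) and ENPP7 (right), in blue, and of the nearest measured genes on either side, in grey, in their order along the chromosome without distances. The blue bars stand at 5.18 to 5.48 and every grey bar lies within the dotted lines of an FCR of 2.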

How the data were processed

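Mucosal RNA of the jejunum and cecum of 19 birds was hybridized by the authors to 38 Affymetrix Chicken Gene 1.0 ST arrays. For 18308 probe sets the authors deposited normalized signals in log2 units with 2 decimals. Their methods name the Transcriptome Analysis Console as the software. How the background was corrected and how probes were normalized and summarized is not given in the sources used for this text. The values were used as deposited. For arrays there is no read depth, and their number limits the precision.

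Probe sets were named from the platform annotation (1 symbol for 12300, several for 256, none for 5752). Gene IDs of 11727 probe sets were found in the RefSeq table of GRCg7b. For a gene with several probe sets the one with the highest mean was used. Jejunum and cecum were set against each other with limma 3.58.1, run in R 4.3.3 (tissue as the only term, Benjamini-Hochberg adjustment over all probe sets, FCR of at least 2 and adjusted p under 0.05), after a test on simulated arrays. Python 3.11.15 with numpy 2.4.6, pandas 2.3.3, scipy 1.17.1 and matplotlib 3.10.9 served for the rest. Relations over birds were tested with 100000 permutations.

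The 3 genes, the gene lists and the markers were chosen with earlier results of these data known. Named genes were the 3 genes, all DETs of the 8 pathway lists, the ABCG and ENPP families, ASAH2, LCT, NPC1L1, ABCA1, NR1H3, NR5A2, HNF4A, SMPD1, SOAT1, SREBF2 and MTTP, the 5 genes most like each of the 3 in each tissue, and 3 neighbours on each side. SMPD1 was not analysed here, and some further items of this rule are not reported here. Marker lists of goblet cells (3 of 7 higher in the jejunum), leukocytes (3 of 8 higher in the jejunum), exocrine pancreas (0 of 6 called) and liver (1 of 10 higher in the cecum) were also counted.

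The same bird number in both tissues was taken as the same bird: the labels number 1 to 19 in each tissue and the methods describe the same subjects, although a protocol field counts 38 birds. Deviations of a bird's arrays from the tissue means correlated by 0.114 on average (range -0.133 to 0.411; 14 of 19 birds were above 0), while arrays of different birds gave -0.006. Alternatives were the bird as a replicate block or random effect, quantile or median scaling of the arrays, a filter that drops probe sets averaging under 5 in each tissue (11718 kept), no moderation, trend and robust moderation, TREAT, array weights, each bird or sets of arrays left out, averaged probe sets per gene, and marker means as covariates. Relations without bird 19 (also after brush border markers were taken out) or without birds 3, 8, 12 and 19, and likeness without the jejunal array of bird 19 or the cecal array of bird 3, were added after seeing the data.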

Additional observations from a re-analysis of the deposited data

How the results depend on the processing

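The differences of ABCG5, ABCG8 and ENPP7 kept their direction and stayed DETs in all 105 values computed under 35 alternatives. Not every alternative could move a difference. Each gene had 1 probe set to average, and the block, random effect, filter, moderation and TREAT settings act on the error or the test only. With the bird as a replicate block the differences were 5.34, 5.18 and 5.48, with adjusted p of 5.6e-20, 1.6e-18 and 2.6e-13 (limma), and the block changed no call among the named genes. Leaving out each bird in turn gave 5.30 to 5.44 for ABCG5, 5.11 to 5.30 for ABCG8 and 5.40 to 5.78 for ENPP7. The other settings reached from 4.71 to 5.61, from 4.54 to 5.52 and from 4.42 (smooth muscle covariate) to 6.04 (without 4 arrays: jejunum of birds 8 and 19, cecum of birds 3 and 12). Of 1052 values of 66 other named genes 11 lost the call, 10 of them under TREAT against a 2-fold difference. TREAT also lowered the number of pathway genes higher in the cecum from 7 to 4. Among 9 relations, those of ENPP7 with ABCG5 and ABCG8 in the jejunum lost their call when brush border markers were taken out and bird 19 was left out (r = 0.14 and 0.05), that of ABCG5 with ENPP7 in the cecum lost its call without birds 3, 8, 12 and 19 (r = 0.44), and that of ABCG8 with ENPP7 in the cecum gained one without birds 3 and 19 (r = 0.52) and without bird 19 (r = 0.54). The cause was not tested. Signals near the low end of the scale, such as those of ABCG8 in the cecum, limit what can be said of variation there.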
